A study of Mus musculus with 12 samples.

Results

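Immediate-early genes are transcribed within minutes of a signal, without new protein synthesis, and their transcripts decay quickly. In B cells, antigen receptor ligation and Toll-like receptor ligands are among the signals that switch them on. The genes examined here were 10 that are commonly measured as such: the zinc finger transcription factors Egr1, Egr2 and Egr3, the orphan nuclear receptors Nr4a1 (NUR77), Nr4a2 (NURR1) and Nr4a3 (NOR1), the early response genes Ier2 and Ier5, the MAP kinase phosphatase Dusp1, and Btg2, an antiproliferative gene and p53 target. They were found by symbol among the 22561 genes of the count table, each as 1 row, and 9 of the 10 had enough counts to be tested. Nr4a3 did not pass the filter on low counts.

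The samples were splenic follicular (FO) B cells of C57BL6 mice aged 10 weeks, sorted on surface markers that included B220hi, AA4.1-, CD23+ and CD21mid. The 4 groups had 3 samples each, without a stimulus or with 12 h of IFNα (a type I interferon), CpG (the oligonucleotide ODN1826, a TLR9 ligand) or CpG + IFNα. All cells were wild type. The sources used here do not state whether the unstimulated samples were cultured as long, so that culture and the absence of a stimulus cannot be told apart in any comparison with them. The labels do not say that the replicates came from separate mice or cultures, and the p-values then measure only the spread between these samples, which may be technical. Bulk RNA barcoding (BRB) sequencing was used, which counts unique molecular identifiers (UMIs) at the 3′ end of transcripts, so that counts do not grow with transcript length.

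The total was between 922450 and 2923865 UMI counts per sample. Levels are given in CPM, the counts scaled to a common library size by the TMM method. In every sample 8 B cell marker genes summed to a high level, between 16686 and 19299 CPM in unstimulated cells, between 15825 and 17883 CPM with IFNα and between 5156 and 6104 CPM with CpG, of which Ighm was the largest part. The sort markers Fcer2a (CD23) and Cr2 (CD21) were lower with IFNα, as were most of the members described below. They went from 1227 ± 196 to 244 ± 54.0 CPM and from 412 ± 57.1 to 81.5 ± 21.7 CPM (SD, n = 3). Both were lower still after CpG (21.3 ± 5.97 and 32.8 ± 11.1 CPM) and after the combination (8.15 ± 1.92 and 14.0 ± 6.22 CPM). By the threshold given below, 2 of the 8 marker genes were lower than in unstimulated cells after IFNα. The count was 7 of 8 after CpG and 8 of 8 after the combination, and 0 were higher in any of these groups. Markers of T cells (at most 3.64 CPM in sum, with Cd3g and Cd8a at 0) and NK cells (at most 1.23 CPM) were at or near 0. The sum over 6 myeloid markers was between 5.29 and 24.6 CPM in unstimulated cells, between 6.69 and 13 CPM with IFNα and at most 3.0 CPM with CpG. With IFNα it was Adgre1 alone (1.67 ± 1.34 CPM in unstimulated cells and 9.24 ± 3.30 CPM with IFNα), and the other 5 (Lyz2, Csf1r, Itgam, Cd14 and S100a8) were at 0, where Lyz2 was at 5.30 ± 3.78 CPM and Csf1r at 3.40 ± 3.57 CPM in unstimulated cells. The sum over 4 globin genes ranged from 57.4 to 345 CPM, from 15.3 to 335 CPM and up to 72.0 CPM in the same order. The part of these markers in the results was not tested. The mitochondrial share was between 5.91% and 8.52% in the samples without CpG and between 2.99% and 4.85% in those with CpG. Its part in the results was not tested. In bulk samples, fewer cells of a type and less RNA per cell cannot be told apart.

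Mean expression was highest in unstimulated cells for 8 of the 9 genes tested, and none was called higher with CpG than with IFNα. With IFNα, 7 of the 9 were lower than in unstimulated cells, where 4.07% of the 9431 genes tested were called lower and 4.56% higher. A gene was called where edgeR's quasi-likelihood test gave a Benjamini-Hochberg adjusted p under 0.1 and the change was over 2-fold. With CpG, and likewise with CpG + IFNα, all 9 were lower than in unstimulated cells, against backgrounds of 25.5% and 25.6% called lower and of 20.1% and 20.3% called higher. No member was called higher in any comparison between pairs of groups, by edgeR or by DESeq2. At an unadjusted edgeR p under 0.05, 1 was higher with IFNα than in unstimulated cells (Btg2), 1 was higher with CpG + IFNα than with CpG (Ier5), and 0 were in the other 4 comparisons. Against unstimulated cells the 9 had a median log2 fold change of -2.05 for IFNα, -3.58 for CpG and -4.12 for the combination, where the median over all genes tested was -0.0012, -0.028 and -0.014. These 3 comparisons share the unstimulated samples. Egr2, Nr4a2 and Dusp1 passed the filter on low counts only with the help of the unstimulated samples, in which they were high, so that their counts are a description. Among the other 6, 5 were lower with IFNα, and all 6 were lower with CpG and with CpG + IFNα than in unstimulated cells, with median log2 fold changes of -1.74, -3.54 and -4.08.

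**Figure D1:**
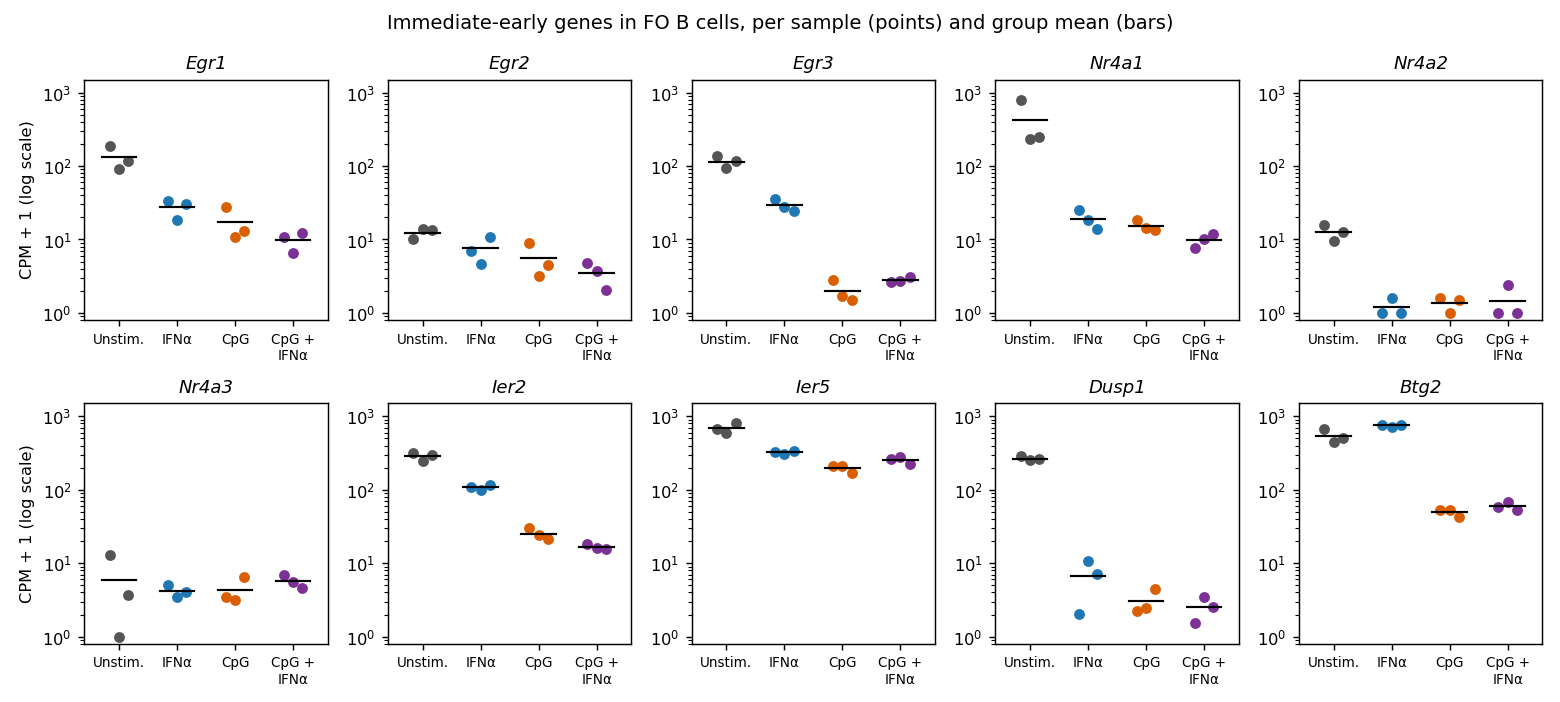
Level of each of the 10 genes as CPM + 1 on a log axis, with the 3 samples of each group as points and the group mean as a bar. The unstimulated samples lie above all stimulated samples for Egr1, Egr3, Nr4a1, Nr4a2, Ier2, Ier5 and Dusp1, whereas Btg2 is higher with IFNα, Egr2 overlaps with IFNα, and Nr4a3 overlaps throughout.

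The members are grouped here by the comparisons in which they passed the threshold, and differences between these groupings were not tested. Nr4a1, Nr4a2 and Ier5 stood apart only in unstimulated cells: they were called lower in all 3 stimulated groups and called in none of the 3 comparisons among these, as were 0.816% of all genes tested. Nr4a2, at 0 to 4 counts per stimulated sample, could hardly be called among the stimulated groups, which leaves 2 members (Nr4a1 and Ier5) without it. Egr3, Ier2, Dusp1 and Btg2 were called lower in both groups with CpG than with IFNα, as were 21.7% of all genes. Egr1 and Egr2 were called lower than with IFNα only in CpG + IFNα. No member was lower with IFNα than without a stimulus and then higher with CpG than with IFNα, a pattern that 0.774% of all genes tested showed. CpG against IFNα gave 4 of 9 members lower and CpG + IFNα against IFNα gave 6 of 9, with backgrounds of 24.7% and 25.5% lower and 19.4% and 18.7% higher. CpG + IFNα against CpG gave 0 of 9 in either direction by edgeR's test and by DESeq2, where edgeR called 4.96% of all genes. At an unadjusted edgeR p under 0.05, 2 members were lower (Egr1 and Ier2) and 1 was higher (Ier5) in that comparison. Leaving out any 1 sample gave between 2 and 4 members that stood apart only in unstimulated cells.

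**Figure D2:**
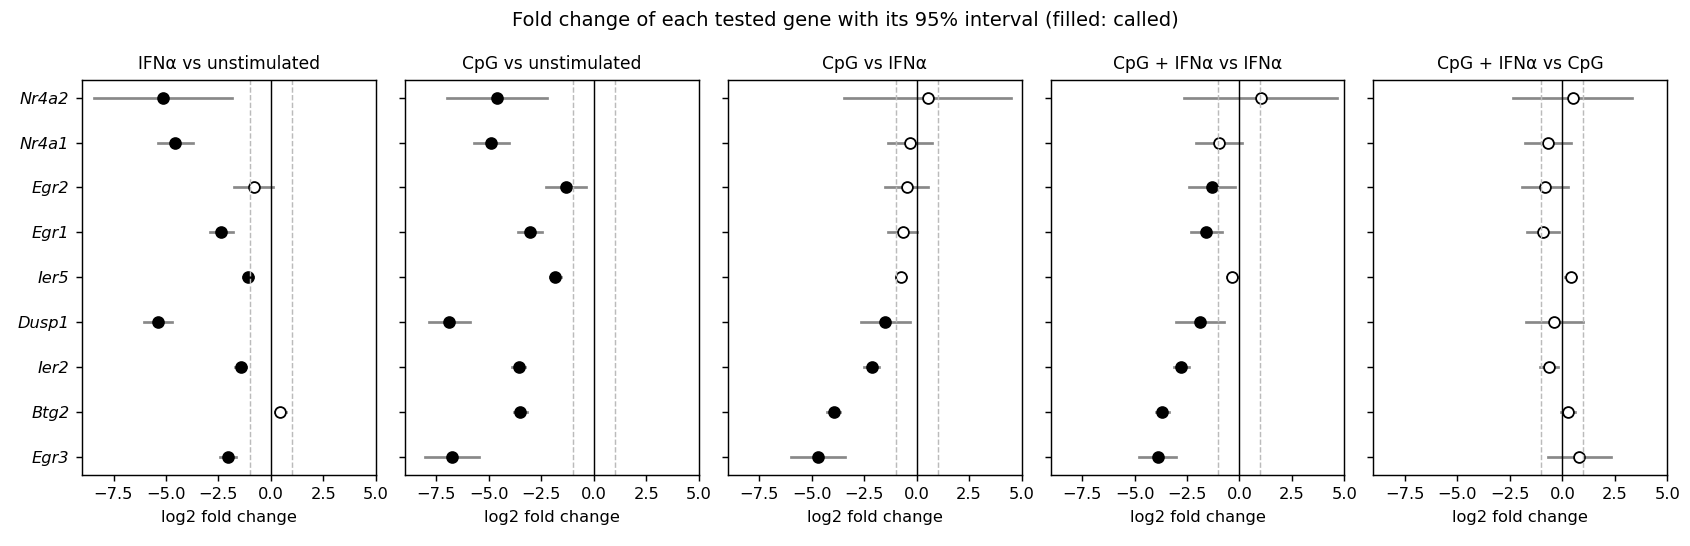
Log2 fold change of the 9 tested genes in 5 comparisons, with 95% intervals as lines, filled points where a gene was called and dashed lines at a 2-fold change. All points but those of Egr2 and Btg2 are filled on the left with IFNα, all are filled with CpG against unstimulated cells, and none is filled to the right of 0 in any panel.

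Promoter sequence is given for 5 members, chosen to set the genes that fell with every stimulus beside Btg2, which did not fall with IFNα. RefSeq windows on GRCm38.p6 were searched for 7 of the 10 members, over the 250 bases before each start and on both strands. Egr1, Egr3 and Ier2 were not searched, so the counts of members with a motif say nothing about them. The motifs were the cyclic AMP response element TGACGTCA (in 1.55% of 32851 promoters), its shorter core TGACG, which also counts within the full site (17.8%), the CArG box bound by SRF (1.47%), TATAAA (12.4%), the NR4A site AAAGGTCA (1.34%), the EGR site GCGNGGGCG (4.70%) and the interferon element GAAANNGAAA (2.98%). The core was found in 6 of 7 members (not in Ier5), the full site in Dusp1 and Btg2, and the CArG box in Egr2 only. Egr2 had 5 windows and counts as a match where any of them holds the motif (3 of the 5 hold the core), whereas the shares over all promoters are per window. The EGR site was found in Nr4a1, Nr4a2 and Btg2, TATAAA in Nr4a2, and the NR4A site and the interferon element in 0 of 7. Capitals mark TGACG on either strand, read 5′ to 3′ on the strand of the gene. Nr4a1 lies at chr15:101266596-101266845 (plus strand, within an intron of a longer transcript), Nr4a2 at chr2:57124004-57124253, Ier5 at chr1:155099637-155099886, Dusp1 at chr17:26508520-26508722 and Btg2 at chr1:134079156-134079405 (all minus strand). For Dusp1 the 47 bases next to the start were left off, since they lie in an exon of another transcript. A match is a description of the letters and not of binding.

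Nr4a1: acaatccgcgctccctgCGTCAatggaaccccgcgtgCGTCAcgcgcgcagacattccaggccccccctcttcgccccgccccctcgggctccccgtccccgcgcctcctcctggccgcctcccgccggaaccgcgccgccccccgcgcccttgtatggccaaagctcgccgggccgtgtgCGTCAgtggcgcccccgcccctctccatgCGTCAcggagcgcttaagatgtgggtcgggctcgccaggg
Nr4a2: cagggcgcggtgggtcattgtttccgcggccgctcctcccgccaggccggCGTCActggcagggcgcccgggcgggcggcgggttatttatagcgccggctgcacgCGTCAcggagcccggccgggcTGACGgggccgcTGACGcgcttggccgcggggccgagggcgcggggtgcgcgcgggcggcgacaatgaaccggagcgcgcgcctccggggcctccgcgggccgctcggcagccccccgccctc
Ier5: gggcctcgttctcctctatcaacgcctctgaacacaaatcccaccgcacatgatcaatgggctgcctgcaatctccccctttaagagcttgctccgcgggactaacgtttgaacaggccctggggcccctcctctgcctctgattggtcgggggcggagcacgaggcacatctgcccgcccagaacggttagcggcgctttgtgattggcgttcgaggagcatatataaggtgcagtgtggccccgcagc
Dusp1: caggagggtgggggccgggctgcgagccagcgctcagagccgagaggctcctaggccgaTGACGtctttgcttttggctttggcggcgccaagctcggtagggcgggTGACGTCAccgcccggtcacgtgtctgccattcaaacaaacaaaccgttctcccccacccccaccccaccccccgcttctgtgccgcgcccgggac
Btg2: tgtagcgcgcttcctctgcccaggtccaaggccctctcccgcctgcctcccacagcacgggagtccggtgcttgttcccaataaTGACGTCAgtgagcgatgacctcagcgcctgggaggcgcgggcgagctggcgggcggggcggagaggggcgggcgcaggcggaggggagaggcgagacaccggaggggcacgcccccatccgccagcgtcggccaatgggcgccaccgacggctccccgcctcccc

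The full element occurred both in Dusp1, which fell 41.7-fold with IFNα, and in Btg2, which was higher by less than 2-fold. The Ier5 window, without the core, belonged to a gene that also fell with every stimulus. The genes printed were picked by their response, and a link between motif and response was not tested.

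NR4A genes encode nuclear receptors that act without a known ligand, and Nr4a1 is widely used as a readout of antigen receptor signalling in lymphocytes. Nr4a1 was at 782, 236 and 246 CPM in the unstimulated samples and at 24.2, 17.6 and 13 CPM with IFNα. With CpG it was at 17.2, 13.5 and 12.5 CPM, and with CpG + IFNα at 6.55, 9.31 and 10.8 CPM. Every unstimulated sample lay far above every stimulated sample, and unstimulated replicate 1 was well above the other 2. The log2 fold change was -4.57 ± 0.41 (SE, n = 3 against 3), -4.88 ± 0.40 and -5.55 ± 0.43 for IFNα, CpG and CpG + IFNα in that order, with edgeR adjusted p of 9.2e-13, 2.1e-14 and 1.2e-15. Without unstimulated replicate 1 these were -3.75, -4.05 and -4.72, and all were called. CpG and IFNα did not differ detectably in Nr4a1 (log2 fold change -0.31, 95% interval -1.38 to 0.75). CpG + IFNα against IFNα gave a log2 fold change of -0.98 (95% interval -2.09 to 0.13, adjusted p = 0.10 by edgeR), just short of the threshold. It passed the threshold, so that Nr4a1 left the group that stood apart only in unstimulated cells, with DESeq2 (-1.03, adjusted p = 0.086), with upper quartile factors (-1.05, adjusted p = 0.088) and without IFNα replicate 3 (-1.15, adjusted p = 0.080).

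Nr4a2, which shares its DNA-binding domain type with Nr4a1, was scarce. It had 16, 8 and 13 counts in the unstimulated samples, 0, 1 and 0 with IFNα, 1, 0 and 1 with CpG, and 0, 4 and 0 with CpG + IFNα. All counts in stimulated cells were below all counts in unstimulated cells. Relative to unstimulated cells, the pooled level was 0.022 times as high with IFNα (exact 95% interval 0.00053 to 0.13, counting error only), 0.034 times with CpG (0.0040 to 0.13) and 0.051 times with CpG + IFNα (0.013 to 0.14). All 3 changes were called by edgeR. Nr4a2 passed the filter on low counts only with the help of the unstimulated samples, so these calls are a description. Differences among the stimulated groups were not measurable at these counts, with a pooled ratio of CpG + IFNα to IFNα of 2.36 (exact 95% interval 0.23 to 116). CpG + IFNα replicate 2 held all 4 of that group's counts. Without it the fitted log2 fold change against unstimulated cells went from -4.12 to -7.07, and that against IFNα from 1.02 to -1.97, neither of which is informative against a group at 0. Without IFNα replicate 2, which held the only IFNα count, the fitted change with IFNα went from -5.14 to -7.18.

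Nr4a3, the remaining receptor of this family, had few counts and no common direction. The counts were 13, 0 and 3 in unstimulated cells, 4, 4 and 4 with IFNα, 4, 3 and 11 with CpG, and 11, 13 and 7 with CpG + IFNα. The groups overlapped in every comparison. The pooled level in CpG + IFNα was 0.92 times that in unstimulated cells, with an exact 95% interval of 0.49 to 1.80 that covers counting error only. The make-up of the family's counts therefore differed between the groups. Nr4a1 made up 96.2% of 1412 NR4A counts in unstimulated cells (between 94.6% and 96.7% per sample) and 63.2% of 95 counts in CpG + IFNα (between 52.2% and 75.0%), and Nr4a3 made up 1.13% and 32.6%. The exact binomial 95% intervals of the Nr4a3 shares were 0.65% to 1.83% and 23.4% to 43.0%.

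EGR proteins bind GC-rich sites through zinc fingers and are induced by MAP kinase and calcium signals, with Egr2 and Egr3 known as restraints on lymphocyte activation. Egr1 was at 187, 89.8 and 117 CPM in unstimulated cells and at 32.3, 17.6 and 29.8 CPM with IFNα. It was at 26.4, 9.98 and 12.0 CPM with CpG and at 9.82, 5.52 and 11.3 CPM with CpG + IFNα. All stimulated samples were below all unstimulated samples, and the ranges with IFNα and CpG overlapped. Egr1 fell by 2.37 ± 0.27 on the log2 scale with IFNα (adjusted p = 6.5e-09), by 3.03 ± 0.29 with CpG (adjusted p = 6.1e-12) and had a log2 fold change of -3.95 ± 0.32 with CpG + IFNα (adjusted p = 3.1e-14), all by edgeR. CpG + IFNα was lower than IFNα (log2 fold change -1.59, 95% interval -2.33 to -0.85, edgeR adjusted p = 0.00020) and the replicates did not overlap. CpG against IFNα gave -0.67 (95% interval -1.35 to 0.013) and CpG + IFNα against CpG gave -0.92 (95% interval -1.69 to -0.15, adjusted p = 0.11), and neither was called. Without CpG replicate 1 the first of these became -1.18 with an adjusted p of 0.0049, and without CpG replicate 2 or 3, or CpG + IFNα replicate 3, the latter was between -1.14 and -1.13 and was called, the only call among the members in that comparison.

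Egr3 had the largest fitted difference of the members between IFNα and each group with CpG when all counts were used. With every library thinned to the depth of the shallowest its log2 fold changes were -4.03 and -3.27, and that of Btg2 in CpG + IFNα against IFNα, between -3.77 and -3.55 in all settings, was then larger in size. It was at 135, 93.1 and 116 CPM in unstimulated cells and at 34.3, 26.8 and 23.7 CPM with IFNα. With CpG it had 3, 1 and 1 counts, and with CpG + IFNα 3, 5 and 4 counts, which was 1.02 ± 0.72 and 1.81 ± 0.22 CPM (SD, n = 3). The groups formed 3 levels that did not overlap, in the order unstimulated, IFNα and both groups with CpG. The log2 fold change with IFNα was -2.05 ± 0.19 (SE, edgeR adjusted p = 5.5e-11). Against IFNα, the pooled level was 0.036 times as high with CpG (exact 95% interval 0.011 to 0.086, edgeR adjusted p = 3.4e-12) and 0.065 times with CpG + IFNα (0.033 to 0.12, edgeR adjusted p = 2.9e-12). Without CpG replicate 1, which held 3 of the 5 CpG counts, the fitted change against IFNα went from -4.70 to -5.37 and that against unstimulated cells from -6.74 to -7.41. The 2 groups with CpG could not be told apart at these counts (pooled ratio 1.81, exact 95% interval 0.59 to 6.56).

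Egr2 had between 2 and 14 counts per sample, fewer than Egr1 and Egr3 in the groups without CpG. It was at 9.10, 12.8 and 12.4 CPM in unstimulated cells, at 6.05, 3.65 and 9.92 CPM with IFNα, at 7.98, 2.14 and 3.49 CPM with CpG and at 3.82, 2.76 and 1.03 CPM with CpG + IFNα. IFNα overlapped with every other group. Egr2 was not called with IFNα (log2 fold change -0.83, 95% interval -1.76 to 0.11, edgeR adjusted p = 0.22). It was called lower with CpG (-1.30 ± 0.47) and with CpG + IFNα (-2.13 ± 0.51, replicates apart). As Egr2 passed the filter on low counts only with the help of the unstimulated samples, these calls are a description. Without CpG replicate 2 the change with CpG was -0.99 and was not called, and without CpG replicate 1 it was -1.91. The call of CpG + IFNα below IFNα (-1.30, edgeR adjusted p = 0.026, replicates overlapping) ended without IFNα replicate 3 (-0.81, adjusted p = 0.25) and without CpG + IFNα replicate 3 (-0.97, adjusted p = 0.11), and with all libraries thinned to the depth of the shallowest (-0.99, adjusted p = 0.14). Without CpG replicate 1, Egr2 was also called lower with CpG than with IFNα (-1.09, edgeR adjusted p = 0.099).

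The shares of the EGR genes in the family's UMI counts were not alike with and without CpG. Egr3 made up 44.4% of 825 EGR counts in unstimulated cells and 46.6% of 234 with IFNα, but 4.59% of 109 with CpG (exact 95% interval 1.51% to 10.4%) and 14.1% of 85 with CpG + IFNα (7.51% to 23.4%). Per sample the share of Egr3 was between 37.3% and 55.7% without CpG and between 3.13% and 17.2% with CpG. For Egr1 the shares were 51.3%, 42.7%, 74.3% and 65.9% in the order unstimulated, IFNα, CpG and CpG + IFNα. These shares compare UMI counts between genes and not levels per cell. The corepressor gene Nab2, whose product binds EGR proteins, was at 42.1 ± 5.55 CPM in unstimulated cells and 34.8 ± 3.53 CPM with IFNα, and at 4.13 ± 3.66 CPM with CpG (log2 fold change against IFNα -2.91, edgeR). Nab1, the other corepressor of this kind, was called in none of the comparisons, with 89.1 ± 16.2, 66.1 ± 13.1, 79.4 ± 4.14 and 67.3 ± 11.8 CPM in the order unstimulated, IFNα, CpG and CpG + IFNα.

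**Figure D3:**
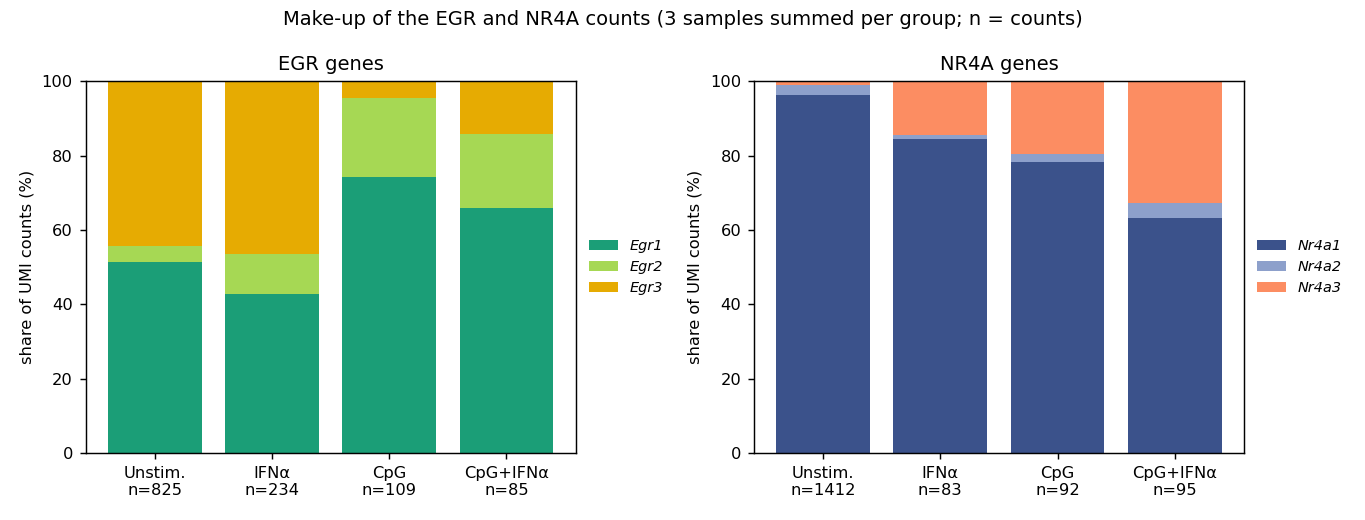
Share of each gene (stacked bars, %) in the summed UMI counts of the 3 EGR genes and of the 3 NR4A genes, per group, with the number of counts under each bar. Egr3 shrinks from 46.6% with IFNα to 4.59% with CpG, and Nr4a3 grows from 1.13% in unstimulated cells to 32.6% with CpG + IFNα.

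Ier2 and Ier5 encode related nuclear proteins of the immediate-early response, and both were abundant enough for precise values. Ier2 was at 318, 249 and 299 CPM in unstimulated cells, at 108, 97.3 and 116 CPM with IFNα, at 28.9, 23.5 and 20.5 CPM with CpG and at 17.5, 15.2 and 14.4 CPM with CpG + IFNα. The 4 groups did not overlap and stood in that order. Ier2 was 2.71-fold lower with IFNα and 12.0-fold lower with CpG than in unstimulated cells (edgeR adjusted p = 3.4e-11 and 4.9e-20), and 4.42-fold lower with CpG than with IFNα (edgeR adjusted p = 1.6e-13). CpG + IFNα was below CpG (log2 fold change -0.63 ± 0.20, edgeR adjusted p = 0.041), which is under 2-fold.

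Ier5 had the smallest fitted loss of the members with CpG + IFNα. It was at 663, 588 and 805 CPM in unstimulated cells, at 326, 308 and 338 CPM with IFNα, at 208, 208 and 167 CPM with CpG and at 259, 275 and 227 CPM with CpG + IFNα. The groups did not overlap, and here CpG + IFNα lay between IFNα and CpG. The log2 fold changes against unstimulated cells were -1.08 ± 0.12, -1.83 ± 0.12 and -1.43 ± 0.12 for the 3 stimulated groups in the order IFNα, CpG and CpG + IFNα (edgeR adjusted p = 1.2e-08, 1.5e-14 and 2.1e-12). Differences among the stimulated groups had small adjusted p but were under 2-fold. CpG was 1.67-fold below IFNα (edgeR adjusted p = 4.2e-06). CpG + IFNα was 1.27-fold below IFNα (edgeR adjusted p = 0.011) and 1.31-fold above CpG (edgeR adjusted p = 0.035). That Ier5 stood apart only in unstimulated cells therefore rests on the 2-fold threshold. Without unstimulated replicate 3 its change with IFNα was -0.98 and was not called.

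Dusp1 removes phosphates from ERK, p38 and JNK, and so is a feedback inhibitor of the kinases that induce many of these genes. It was at 286, 252 and 258 CPM in unstimulated cells and at 1.01, 9.73 and 6.11 CPM with IFNα. It was at 1.23, 1.43 and 3.49 CPM with CpG and at 0.545, 2.41 and 1.54 CPM with CpG + IFNα. The unstimulated samples were close to each other, and every stimulated sample was far below them. The fitted log2 fold changes were -5.38 ± 0.33, -6.88 ± 0.48 and -7.27 ± 0.48, and all 3 were called. Dusp1 passed the filter on low counts only with the help of the unstimulated samples, so these values are a description. They were the largest fitted changes of the members in these 3 comparisons with all samples in the fit. The rank against Nr4a2 with IFNα (-5.14, 95% interval -8.45 to -1.83) is uncertain. Without IFNα replicate 2 the change of Dusp1 with IFNα was -6.06, and without CpG replicate 3 that with CpG was -7.54. CpG and CpG + IFNα were called below IFNα (-1.49 and -1.89, edgeR adjusted p = 0.013 and 0.0020), but the replicates overlapped, with IFNα at 1 to 16 counts. Both calls ended without IFNα replicate 2 (-0.81 and -1.20, adjusted p = 0.29 and 0.11), and the first was -2.16 without CpG replicate 3. In GENCODE M21, Dusp1 is the only member whose gene model overlaps other genes, on both strands, and the strand setting of the counting is not given in the sources used here, so that its reads may not all be its own.

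Btg2 binds the CCR4-NOT complex, which shortens the tails of mRNA, and restrains proliferation. It was the exception with IFNα. It was at 681, 449 and 513 CPM in unstimulated cells and at 769, 714 and 768 CPM with IFNα, a change of 0.45 ± 0.12 on the log2 scale (edgeR adjusted p = 0.0079) that was under 2-fold although the replicates did not overlap. It was at 52.8, 52.7 and 40.9 CPM with CpG and at 57.3, 66.6 and 51.4 CPM with CpG + IFNα. Every sample with CpG was thus far below every sample without it. Its promoter window and that of Dusp1 were the only 2 of the 7 searched that held the full TGACGTCA. Against IFNα, Btg2 was 15.5-fold lower with CpG and 12.7-fold lower with CpG + IFNα (edgeR adjusted p = 3.2e-21 and 8.3e-21), and against unstimulated cells 11.3-fold and 9.29-fold lower. Btg1, its close relative, was at 1307 ± 136 CPM, 538 ± 36.2 CPM, 77.3 ± 4.14 CPM and 80.6 ± 6.67 CPM in the order unstimulated, IFNα, CpG and CpG + IFNα, and thus fell already with IFNα.

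The difference between samples with and without IFNα was compared between cells with and without CpG. The interaction, which is the log2 fold change of CpG + IFNα against CpG minus that of IFNα against unstimulated cells, was called above 0 for 6 of 9 members, where 3.09% of all genes tested were, and for 4 of the 6 members that passed the filter without the unstimulated samples. Since it includes the unstimulated samples, IFNα and culture cannot be told apart in it. It was 3.90 ± 0.68 for Nr4a1, 2.85 ± 0.76 for Egr3, 1.48 ± 0.17 for Ier5 and 1.44 ± 0.46 for Egr1 (edgeR adjusted p = 0.00023, 0.0079, 2.7e-07 and 0.048). For Dusp1 it was 4.99 ± 0.75 and was called. Dusp1, like Nr4a2, passed the filter on low counts only with the help of the unstimulated samples, so its value is a description. Nr4a2 was the sixth (5.64, 95% interval 1.28 to 10.0), but this value rests on 0 to 4 counts in each stimulated sample. It was 2.62 and not called without CpG + IFNα replicate 2 (adjusted p = 0.93), and Nr4a2 was not tested with at least 10 counts in 3 samples. All 6 were lower with IFNα than in unstimulated cells, and the groups with CpG were both at low levels, between 0 and 43 counts per sample for all but Ier5. For Btg2 the log2 fold change was 0.45 for IFNα against unstimulated cells and 0.28 for CpG + IFNα against CpG (interaction -0.17, 95% interval -0.59 to 0.26). The call for Egr1 ended with DESeq2, at a value of 1.47 (adjusted p = 0.22). It also ended without each of 6 samples in turn (unstimulated replicate 1, IFNα replicate 2, CpG replicates 2 and 3, and CpG + IFNα replicates 1 and 3), with values between 1.09 and 1.35. Other called values moved by over 1.5-fold without 1 sample and stayed called: Nr4a1 had 3.08 without unstimulated replicate 1, Egr3 3.54 without CpG replicate 1, Nr4a2 7.68 without IFNα replicate 2, and Dusp1 5.66, 5.68 and 4.39 without IFNα replicate 2, CpG replicate 3 and CpG + IFNα replicate 2. The median interaction was 1.48 over the 9 members and -0.052 over all genes tested.

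Other early genes were in large part lower with IFNα too, but some were higher with CpG than with IFNα. They were taken from lists of known members, chosen with earlier results of these data known. Of 8 tested AP-1 genes 6 were lower with IFNα and 0 higher, and of 30 other immediate-early genes 20 were lower and 0 higher (at an unadjusted edgeR p under 0.05, 6 lower and 0 higher, and 25 lower and 2 higher), against 4.07% lower and 4.56% higher of all genes tested. Some, such as Fosb (0 to 5 counts per stimulated sample) and Rgs1 (0 to 3), passed the filter only with the help of the unstimulated samples. Counts without such genes were not made, so these list counts are a description. Fos, the partner of Jun in AP-1, was at 1269 ± 182 CPM in unstimulated cells and at 5.08 ± 0.24, 6.23 ± 2.59 and 4.56 ± 2.19 CPM with IFNα, CpG and CpG + IFNα. Jun was at 879 ± 280, 49.2 ± 11.6, 125 ± 9.49 and 172 ± 15.6 CPM in the same order, so that it was higher with CpG than with IFNα (log2 fold change 1.35, edgeR) and yet below unstimulated cells. Atf3 was at 37.4 ± 42.5, 4.59 ± 2.16, 32.7 ± 5.86 and 82.6 ± 1.77 CPM. The unstimulated Atf3 samples ranged from 10.7 to 86.4 CPM. Myc, which drives growth, was at 179 ± 41.8, 38 ± 10.9, 568 ± 45.2 and 709 ± 55.9 CPM and so exceeded unstimulated cells with CpG.

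**Figure D4:**
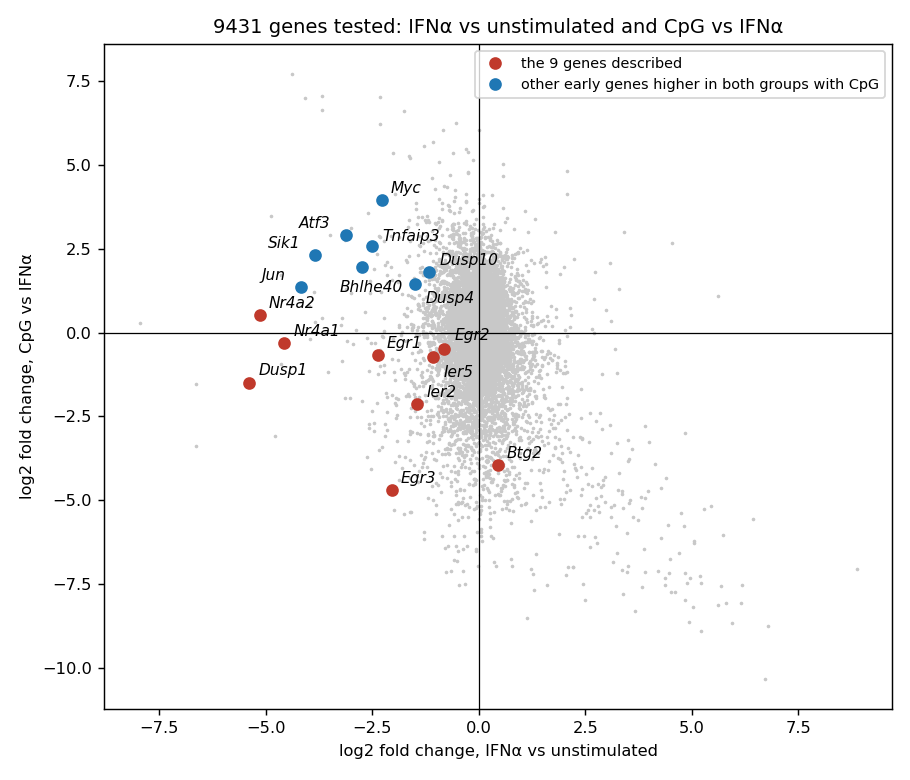
Log2 fold change with IFNα against unstimulated cells (horizontal axis) and with CpG against IFNα (vertical axis) for the 9431 genes tested, with the 9 members in red and 8 early genes that were called higher in both groups with CpG than with IFNα in blue. The axes share the IFNα samples, so that no correlation is read from them. All members but Btg2 lie left of 0, and of these only Nr4a2, at 0 to 4 counts per stimulated sample, lies above 0.

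The pattern of loss with IFNα and higher values in both groups with CpG was found in 2 of 8 AP-1 genes (Jun and Atf3), in 4 of 30 other immediate-early genes (Myc, Sik1, Bhlhe40 and Tnfaip3) and in 2 of 7 other MAP kinase phosphatases (Dusp4 and Dusp10), against 0.774% of all genes tested. Standing apart only in unstimulated cells was found in Fos and Junb, in Ppp1r15a, Rgs1 and Plk2, in the p53 target Pmaip1 and the heat shock gene Dnajb4, and in 0 of the 7 phosphatases, against 0.816% of all genes tested. Of these genes Rgs1 had 0 to 3, Fos 5 to 15 and Plk2 4 to 24 counts per stimulated sample, too few to show small differences among the stimulated groups. Rgs1 and Fos were high in unstimulated cells, which helped them to pass the filter. Being lower with CpG than with IFNα in both groups was found in 14 of the 30 early genes, in 4 of 8 EGR co-factors and SRF factors, in 2 of 4 BTG and TOB genes, in 2 of 17 p53 targets, in 1 phosphatase and in 0 of the 8 AP-1 genes and 12 heat shock genes, against 21.7% of all genes tested. The largest of these losses by p-value included Zfp36, an mRNA decay factor (253 ± 6.95 CPM with IFNα and 12.2 ± 3.45 CPM with CpG), and Klf2, a factor of quiescent lymphocytes (643 ± 88.5 and 33.4 ± 3.56 CPM). Dusp2, Dusp4, Dusp5, Dusp6 and Dusp10 were the 5 of 7 phosphatases lower with IFNα, with log2 fold changes between -2.20 and -1.16, compared with -5.38 for Dusp1. Of 12 tested heat shock genes 2 were lower and 0 higher with IFNα (6 lower and 3 higher at an unadjusted edgeR p under 0.05), and of 17 p53 targets, a list to which Btg2 could belong, 1 was lower and 3 higher (2 and 5 at the unadjusted threshold). Of 8 tested EGR co-factors and SRF factors 1 was lower and 0 higher (2 and 2), and of 4 BTG and TOB genes 2 were lower and 0 higher (4 and 0), where 4.07% of all genes tested were lower and 4.56% higher.

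The members also resembled different genes over the 12 samples. By Pearson correlation of log2 CPM, described without a test because all points share the 4 groups, the closest gene outside the members was Rgs2 for Ier2 (r = 0.996), Calhm2 for Btg2 (0.994), Btg1 for Egr3 (0.992), Tob2 for Egr1 (0.979), Rgs1 for Nr4a2 (0.975) and Nr4a1 (0.973), Dusp2 for Ier5 (0.974), Gm37531 for Dusp1 (0.969) and Abhd6 for Egr2 (0.944). The next were Fcer2a and Gm17096 for Ier2, Il16 and Fth1 for Btg2, Pglyrp2 and Tpm4 for Egr3, Slc66a2 and Gm18811 for Egr1, Ppp1r15a and Ddx5 for Nr4a2, Gripap1 and Clec12a for Nr4a1, Psd4 and Klf11 for Ier5, Nfkbid and A530041M06Rik for Dusp1, and Qsox1 and Tstd3 for Egr2. Among themselves, Egr3 and Btg2 had r = 0.919 over all 12 samples and 0.989 over the 9 stimulated samples, while Nr4a1 and Dusp1 had 0.945 over 12 and 0.230 over 9. The likeness of the latter pair over all samples therefore rested on the unstimulated ones.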

How the data were processed

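RNA of 12 samples of FO B cells was measured by BRB sequencing. The authors extracted UMIs with UMI-tools 1.1.2, trimmed reads with Trim Galore 0.6.7, mapped them to GRCm38 with HISAT2 2.2.1 and assigned them to genes with featureCounts 2.0.1, per the labels, and deposited UMI counts per gene without normalization. The annotation release and the strand setting are not given in the sources used here. TMM factors were computed in R 4.3.3 with edgeR 4.0.16, which kept 9431 genes by filterByExpr and fitted the 4 groups together (glmQLFit, glmQLFTest). Fold changes are log2 with SE. Calls needed a Benjamini-Hochberg adjusted p under 0.1 and over 2-fold. Intervals of pooled ratios and shares are exact and cover counting error only.

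The genes and lists were chosen with earlier results of these data known. All 10 members are named. Genes of companion lists are those with the smallest p whose replicates do not overlap, and those counted singly. The 3 genes most like each member are named. Alternatives were DESeq2 1.42.0, other size factors, filters and thresholds, drawn-down counts, only the groups compared, no mitochondrial or rRNA genes, a replicate block and each sample left out. Gene positions are from GENCODE M21, whose build is GRCm38. A further gene of the B cell marker list, beyond the 8 summed, is not reported here.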

Additional observations from a re-analysis of the deposited data

Results flagged for a closer look

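The test of the interaction called 6 members, in which the log2 fold change of CpG + IFNα against CpG minus that of IFNα against unstimulated cells was above 0: Egr1 1.44, Egr3 2.85, Nr4a1 3.90, Nr4a2 5.64, Ier5 1.48 and Dusp1 4.99. The log2 fold change of IFNα against unstimulated cells was between -5.38 and -1.08 in these genes, and that of CpG + IFNα against CpG was smaller in size, between -0.92 and 0.81. Nr4a2 had 0 to 4 counts in each stimulated sample and was not called without CpG + IFNα replicate 2. Nr4a2 and Dusp1 passed the filter on low counts only with the help of the unstimulated samples, so their values are a description. In comparisons with the unstimulated samples, IFNα and culture cannot be told apart. Egr1, Egr3, Nr4a1, Nr4a2 and Dusp1 had at most 43 counts in any sample with CpG, whereas Ier5 had at least 292. The part of low counts in the result was not tested. Groups of 3 samples were not tested for outliers.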

How the results depend on the processing

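Of 1478 values of single members under 24 alternative settings, 1427 kept their direction and their side of the threshold, 27 lost and 11 gained a call, and 13 changed sign, none of them a called value. The values that changed sign with a full set of samples were CpG + IFNα against CpG with counts drawn down (Egr2 0.0025 and Dusp1 0.30). Some values that were uncalled with all samples changed sign with 1 sample left out. The Egr2 interaction then ranged from -0.36 to 0.63, and Egr2 in CpG against IFNα from -1.09, which was called, to 0.014. Dusp1 in CpG + IFNα against CpG ranged from -0.99 to 0.30. Nr4a2 in CpG + IFNα ranged from -1.97 to 3.08 against IFNα and from -2.49 to 0.94 against CpG. The cause was not tested.

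The number of members that stood apart only in unstimulated cells fell from 3 to 1 (Ier5) with at least 10 counts in 3 samples, where Nr4a2 was no longer tested, and with counts drawn down. With a log2 fold change over 2, 4 members did (Dusp1, Egr1, Nr4a1 and Nr4a2), and members lower in CpG + IFNα than with IFNα fell from 6 to 3. In CpG + IFNα against CpG the count of members called lower ranged from 0 to 1 with each sample left out. Nr4a1 in CpG + IFNα against IFNα was also called with at least 10 counts in 3 samples (-1.01) and with counts drawn down (-1.18). Egr1's interaction was 1.22 with counts drawn down (adjusted p = 0.20), where Ier2 gained a call (1.13). Genes called with a log2 fold change over 2 numbered 251, 1677, 1826, 1648, 1698, 165 and 155 in the comparisons IFNα, CpG and CpG + IFNα against unstimulated cells, CpG and CpG + IFNα against IFNα, CpG + IFNα against CpG, and the interaction (814, 4303, 4329, 4156, 4175, 468 and 590 at over 2-fold). Upper quartile factors moved the median of all genes with CpG and CpG + IFNα to -0.14. The replicate block changed no call of a member. Correlations of deviations between same-numbered samples were over 0.1 in 5 of 18 pairs (between -0.065 and 0.20). All 5 were among the 9 pairs of stimulated groups (between 0.0087 and 0.20), and pairing, which needed every pair over 0.1, was not assumed. Nr4a2, Nr4a3, Egr2 and, with CpG, Egr3 and Dusp1 had at most 16 counts in any sample, so that counting error is large there.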
